A study of Mus musculus with 18 samples.

Results

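The expression of 10 genes that mark the passage of cells from an epithelial to a mesenchymal state was followed through in vitro blood differentiation and in fibroblasts reprogrammed towards blood. They are *Cdh1*, *Epcam*, *Cldn6*, *Cldn7*, *Krt8* and *Krt18* on the epithelial side, *Cdh2* and *Vim* on the mesenchymal side, and *Snai1* and *Snai2*, which encode Snail family repressors. The genes were listed by name, and all 10 were found both among the 20310 genes of the stage table and among the 20495 entries of the fibroblast table. The data comprised 18 mouse RNA-seq samples of strain 129. Of these, 10 came from the differentiation of an ES cell line with a *Brachyury* GFP reporter, as 2 replicates for each of 5 stages, and 8 were single libraries of mouse embryonic fibroblasts (MEFs).

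The stages were ESCs, mesoderm cells (MES, Bry.GFP+ and FLK1-), hemangioblasts (HB, Bry.GFP+ and FLK1+), hematopoietic progenitors (HP, CD41+) and macrophages (MAC, CD11b+). The ESCs had been grown on a MEF feeder layer before they formed embryoid bodies. The MEFs were prepared from embryos at day 14.5 and sorted to be negative for CD45, CD41, CD31 and CD117. They were either untreated (uFIB) or given SL (Scl and Lmo2), SFGL (Scl, Fli1, Gata2 and Lmo2) or FGL (Fli1, Gata2 and Lmo2), with 1 library of each at day 12 and 1 at day 21. *Fli1*, *Gata2* and *Lmo2* were delivered by lentiviruses. The MEFs were wild type or from iTal1-2A-GFP mice, in which doxycycline induces a transgene of *Tal1*, the gene also called *Scl*. The labels do not say which libraries came from which MEFs, and the source of *Tal1* is not given by library.

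Epithelial cells adhere to each other through E-cadherin, the product of *Cdh1*, and through tight junctions built from claudins, and they contain keratin filaments such as the pair of keratin 8 and keratin 18. Mesenchymal cells have lost these contacts, carry N-cadherin, the product of *Cdh2*, and contain filaments of vimentin. During gastrulation the cells of the epiblast make this switch in the primitive streak, where Snail proteins bind E-boxes, short sequences such as CAGGTG, and repress *Cdh1*. Blood cells arise from the mesoderm formed in this way and are not attached to a tissue layer.

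Expression is given in FPKM, counts of fragments corrected for the length of the transcript and the depth of the library, so that levels of different genes can be compared within a table. For the stages the authors' value combines the replicates, so that it has no replicate error, and each MEF condition has 1 library. No difference was therefore tested, and an order of levels cannot be set against the spread between replicates. The number of reads behind a value is unknown. In the MEF libraries the steps of values under 0.3 FPKM gave relative depths of 0.586 to 1.57 with the uFIB library of day 12 set to 1, a step that 15.1% to 19.2% of such genes had in common. A marker of each stage was read beside its label. *Pou5f1* was highest in ESCs (383 FPKM), *T*, which encodes Brachyury, in MES (142 FPKM), *Kdr*, which encodes FLK1, in HB (77.6 FPKM), *Hbb-bh1* in HP (5182 FPKM) and *Emr1*, which encodes the macrophage antigen F4/80, in MAC (353 FPKM). Brachyury and FLK1 were also used for sorting, so that *T* and *Kdr* are no independent check. Other markers peaked elsewhere. The mesoderm markers *Mixl1* (46.9 FPKM in MES, 80.4 FPKM in HB) and *Eomes* (34.9 and 55.0 FPKM) were highest in HB. *Tal1*, a hemangioblast marker, was highest in HP (57.3 FPKM, against 19.9 FPKM in HB). ESCs differed from the other stages also in the tools that the labels name for them (Bowtie and HOMER against Cufflinks), and a difference between ESC and MES and one between the ways of processing cannot be told apart.

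Upstream sequences are shown for epithelial genes that were lower in HB than in MES and for the keratin genes that were not, because they are the places where an E-box of the Snail type can be looked for. They are the 250 bases before the start site, from RefSeq on GRCm38.p6, in the direction of the gene. Capitals mark CAGGTG or its reverse complement CACCTG, so that both strands were searched.
*Epcam*, chr17:87635729-87635978, plus strand: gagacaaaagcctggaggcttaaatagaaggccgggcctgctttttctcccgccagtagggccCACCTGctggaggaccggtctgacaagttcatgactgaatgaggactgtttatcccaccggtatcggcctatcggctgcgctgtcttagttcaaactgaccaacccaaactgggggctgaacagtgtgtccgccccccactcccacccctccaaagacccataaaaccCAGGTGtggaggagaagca
*Cldn6*, chr17:23679115-23679364, plus strand: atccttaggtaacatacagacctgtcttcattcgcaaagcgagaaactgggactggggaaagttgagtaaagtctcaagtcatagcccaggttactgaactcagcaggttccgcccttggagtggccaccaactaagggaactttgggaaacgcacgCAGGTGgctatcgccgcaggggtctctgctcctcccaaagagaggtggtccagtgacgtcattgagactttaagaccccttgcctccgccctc
*Cldn7*, upstream start site, chr11:69964529-69964778, plus strand: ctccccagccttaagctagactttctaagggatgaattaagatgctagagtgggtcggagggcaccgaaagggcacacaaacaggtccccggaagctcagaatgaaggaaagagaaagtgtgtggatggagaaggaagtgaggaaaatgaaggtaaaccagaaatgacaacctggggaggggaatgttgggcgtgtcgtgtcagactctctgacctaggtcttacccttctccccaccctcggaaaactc
*Cldn7*, downstream start site, chr11:69965171-69965420, plus strand: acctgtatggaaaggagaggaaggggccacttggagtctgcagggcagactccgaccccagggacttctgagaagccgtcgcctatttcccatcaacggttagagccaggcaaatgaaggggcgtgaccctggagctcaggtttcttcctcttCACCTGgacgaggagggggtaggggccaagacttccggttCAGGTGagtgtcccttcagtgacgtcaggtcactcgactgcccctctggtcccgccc
*Krt8*, chr15:102004343-102004592, minus strand: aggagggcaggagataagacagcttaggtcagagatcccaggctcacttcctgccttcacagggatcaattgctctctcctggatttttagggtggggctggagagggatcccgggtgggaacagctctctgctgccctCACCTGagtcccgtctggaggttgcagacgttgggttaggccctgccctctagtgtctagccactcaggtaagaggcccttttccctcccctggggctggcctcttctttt
*Krt18*, chr15:102027966-102028215, plus strand: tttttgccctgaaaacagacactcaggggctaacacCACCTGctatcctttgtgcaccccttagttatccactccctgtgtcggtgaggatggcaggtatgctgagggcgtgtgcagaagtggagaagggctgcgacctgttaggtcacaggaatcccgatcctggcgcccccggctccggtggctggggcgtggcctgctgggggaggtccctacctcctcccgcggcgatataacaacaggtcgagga
*Epcam* held 2 such E-boxes, at -187 to -182 and at -19 to -14 counted from the start site, and *Cldn6* held 1 at -93 to -88. The downstream start site of *Cldn7* held 2, at -97 to -92 and at -57 to -52, and its upstream start site held 0. *Krt8* and *Krt18* held 1 each, at -111 to -106 and at -214 to -209. RefSeq windows were matched for 7 of the 10 genes, as 8 start sites, and were missing for *Cdh1*, *Cdh2* and *Snai2*. The windows of *Snai1*, with 1 such E-box, and of *Vim*, with 0, are among the 8 and are not printed. Of these 8 windows, 6 held the E-box, which was also present in 17.2% of all 32851 windows of this length. No E-box near *Cdh1* could therefore be looked for. The letters were present both in the keratin genes, whose RNA stayed level from MES to HB, and in the claudin genes, whose RNA fell. A match describes the sequence and does not show that a Snail protein was bound.

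In ESCs *Cdh1* was the 113th most highly expressed of all genes. Its level was 152 FPKM in ESCs, 77.8 FPKM in MES, 6.64 FPKM in HB, 1.94 FPKM in HP and finally 1.8 FPKM in MAC. MES kept 51.2% of the ESC level and HB kept 4.36%, and the step from MES to HB was the steepest. In these bulk samples, fewer cells of a type and less RNA per cell cannot be told apart. The gene lies on the plus strand of chromosome 8 (GRCm38, 106603368 to 106670246).

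*Cldn6*, which encodes a claudin of early embryonic epithelia, had 66.1 FPKM in ESCs, 22.9 FPKM in MES, 1.81 FPKM in HB and 0.586 FPKM in HP and was listed at 0 in MAC. Its course was that of *Cdh1*, with a larger loss already in MES, where 34.6% of the ESC level was left. *Cldn6* (23679365 to 23682446) and *Epcam* (87635979 to 87651127) both lie on the plus strand of chromosome 17. *Epcam*, which encodes an epithelial adhesion molecule, had 51.4 FPKM in ESCs, 57.0 FPKM in MES, 9.51 FPKM in HB, 0.720 FPKM in HP, with 0.234 FPKM left in MAC. *Epcam* differed little between ESCs and MES and was lower from HB onwards. *Cldn7*, whose product can bind EPCAM in epithelial membranes, had 7.71 FPKM in ESCs, 26.7 FPKM in MES, 1.93 FPKM in HB, 0.256 FPKM in HP, with 0.124 FPKM left in MAC, so that it peaked in MES. It lies on the plus strand of chromosome 11 (69964779 to 69967886).

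*Cldn7* was the only member with more than 1 TSS in the stage table, and its TSSs took different courses. TSS2619 had 3.22 FPKM in ESCs, 0.700 FPKM in MES and 0.0419 FPKM in HB, whereas TSS2620 had 4.49 FPKM in ESCs, 26.0 FPKM in MES and 1.89 FPKM in HB. The peak of *Cldn7* in MES lay in TSS2620 alone, while TSS2619 was lower in MES than in ESCs. The table gives no position for a single TSS, so that these values cannot be assigned to the upstream or the downstream start site printed above.

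The keratin genes followed a later schedule. *Krt8* had 88.4 FPKM in ESCs, 98.6 FPKM in MES, 94.3 FPKM in HB, 23.9 FPKM in HP but 0.124 FPKM in MAC. *Krt18* had 203 FPKM in ESCs, 119.6 FPKM in MES, 123 FPKM in HB, 54.2 FPKM in HP but 0.620 FPKM in MAC. Both were kept in HB, where *Cdh1* was nearly lost, and both were still well above 10 FPKM in HP. In HP, *Krt18* ranked 508th among all genes and *Cdh1* ranked 8751st. The level of *Krt18* was 2.30 times that of *Krt8* in ESCs, 1.21 times in MES, 1.30 times in HB and 2.27 times in HP. From ESC to MES the partners differed, with *Krt18* at 58.9% and *Krt8* at 111.5% of the ESC level. The genes lie near each other on chromosome 15, *Krt8* on the minus strand (101996711 to 102004342) and *Krt18* on the plus strand (102028216 to 102032026). Reads of a noncoding transcript annotated opposite *Krt8*, *Gm36026*, could count towards *Krt8*, since the counting is not stated to use strand.

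On the mesenchymal side, *Cdh2* had 3.67 FPKM in ESCs, 14.0 FPKM in MES, 25.4 FPKM in HB, 4.02 FPKM in HP, with 1.21 FPKM in MAC. *Cdh2* was highest in HB and was back near its ESC level in HP. *Vim* had 45.9 FPKM in ESCs, 199.8 FPKM in MES, 261 FPKM in HB, 199 FPKM in HP, then 2128 FPKM in MAC. It was high from MES onwards and ranked 11th among all genes in MAC, where *Cdh2* had its lowest level. *Vim* lies on the plus strand of chromosome 2 (13574311 to 13582826) and *Cdh2* on the minus strand of chromosome 18, where the noncoding *Gm15485* is annotated opposite to it.

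The Snail genes, *Snai1* on the plus strand of chromosome 2 (167538227 to 167542811) and *Snai2* on the plus strand of chromosome 16 (14705859 to 14709382), were low at every stage. *Snai1* had 1.14 FPKM in ESCs, 4.17 FPKM in MES, 4.18 FPKM in HB and 0.323 FPKM in HP and was listed at 0 in MAC. Its higher levels were those of the Brachyury-positive stages MES and HB, and *Cdh1* was 18.7 times the level of *Snai1* in MES but 1.59 times in HB. *Snai2* stayed under 1 FPKM in every stage, between 0.0146 FPKM in MAC and 0.955 FPKM in HP.

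**Figure D1:**
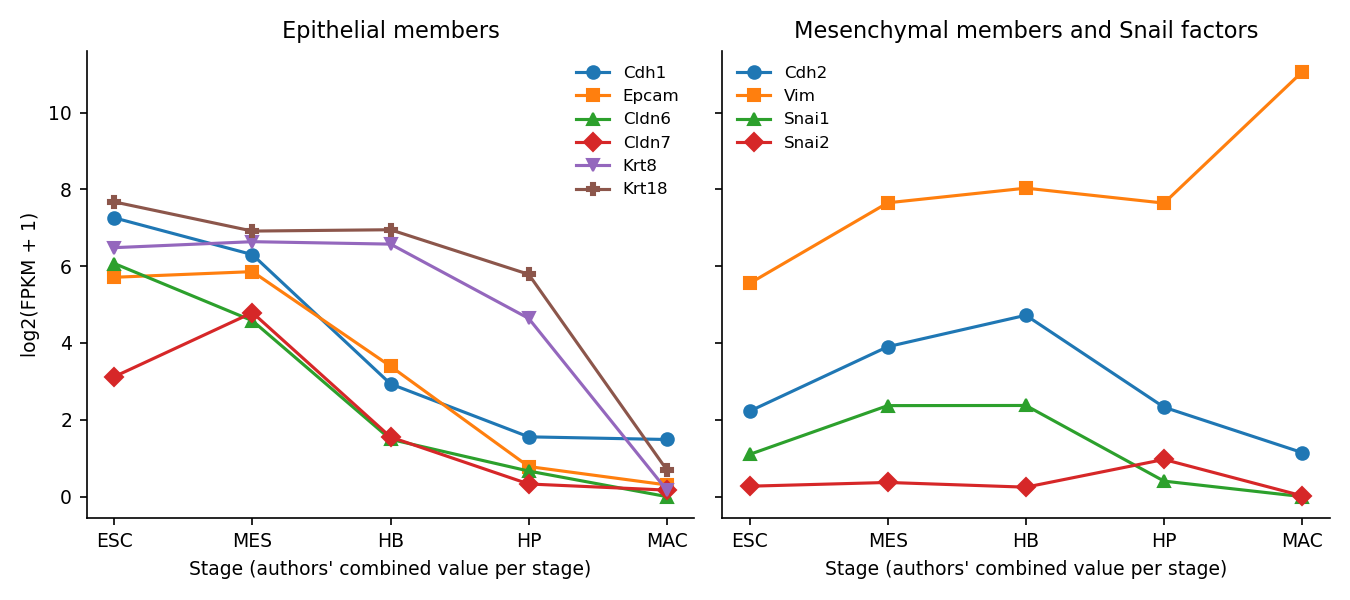
Expression of the 10 genes on the log2(FPKM + 1) scale (y axis) in the 5 stages (x axis), with the epithelial genes on the left and *Cdh2*, *Vim* and the Snail genes on the right. Each point is the authors' combined value and has no error; *Krt8* and *Krt18* stay level from MES to HB while the other epithelial genes fall, and *Vim* is highest in MAC.

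To place the changes between consecutive stages, a gene was called where it differed at least 2-fold (on FPKM + 0.001) and reached 1 FPKM in the higher of the stages, and sizes are differences on the log2(FPKM + 1) scale, which understates the change of low genes. From ESC to MES, 4 of the 9 members at 1 FPKM or more were called higher, where 11.3% of all genes were, and 1 was called lower, where 12.0% were. Among the members called higher, *Vim* rose by 2.10, *Cdh2* by 1.68 and *Snai1* by 1.27, and *Cldn7* rose by 1.67 with them. *Cldn6* was the member called lower, at -1.49. *Cdh1* changed by -0.96 and stood 1.95-fold lower in MES, just short of a call.

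From MES to HB, 4 of the 9 members at 1 FPKM or more were called lower against 6.30% of all genes, and 0 were called higher against 4.05%. The members that fell were the adhesion genes *Cdh1* (-3.37), *Cldn7* (-3.24), *Cldn6* (-3.09) and *Epcam* (-2.46). In FPKM these were 11.7-fold, 13.8-fold, 12.6-fold and 5.99-fold lower in HB. *Krt8* (-0.06), *Krt18* (0.03), *Snai1* (0.00) and *Vim* (0.38) changed little, and *Cdh2* was 1.82-fold higher and not called. MES and HB were processed alike and both carry the Brachyury reporter.

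From HB to HP, 8 of the 9 members at 1 FPKM or more were called lower, where 12.8% of all genes were, and 0 were called higher, where 12.3% were. They came from both sides of the switch, and *Epcam*, *Cldn6*, *Cldn7* and *Snai1* reached 1 FPKM in HB alone. *Cdh2* fell by 2.39, *Snai1* by 1.97, *Krt8* by 1.93 and *Krt18* by 1.16, and *Cdh1*, *Epcam*, *Cldn6* and *Cldn7* fell further by 0.83 to 2.61. *Vim* differed by -0.39 and was the exception among the members at 1 FPKM or more. The hemogenic endothelium that lies between these stages was not analysed here.

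From HP to MAC, 5 members reached 1 FPKM, of which 3 were called lower, where 16.9% of all genes were, and 1 was called higher, where 38.0% were. *Krt18* fell by 5.09, *Krt8* by 4.47 and *Cdh2* by 1.18, while *Vim* rose by 3.41. MAC values were high in general, with an upper quartile of the genes above 0 of 18 FPKM against 10.8 FPKM in HP. The median change of all genes from HP to MAC was 0.46, and was -0.17 with the stages set to the same upper quartile. Relative to the median of 0.46, *Vim* was 2.96 higher, *Krt18* was at -5.55 and *Krt8* at -4.93. From MES to HB this scaling moved the median by -0.14, and relative to the median as deposited *Cdh1* was at -3.50.

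**Figure D2:**
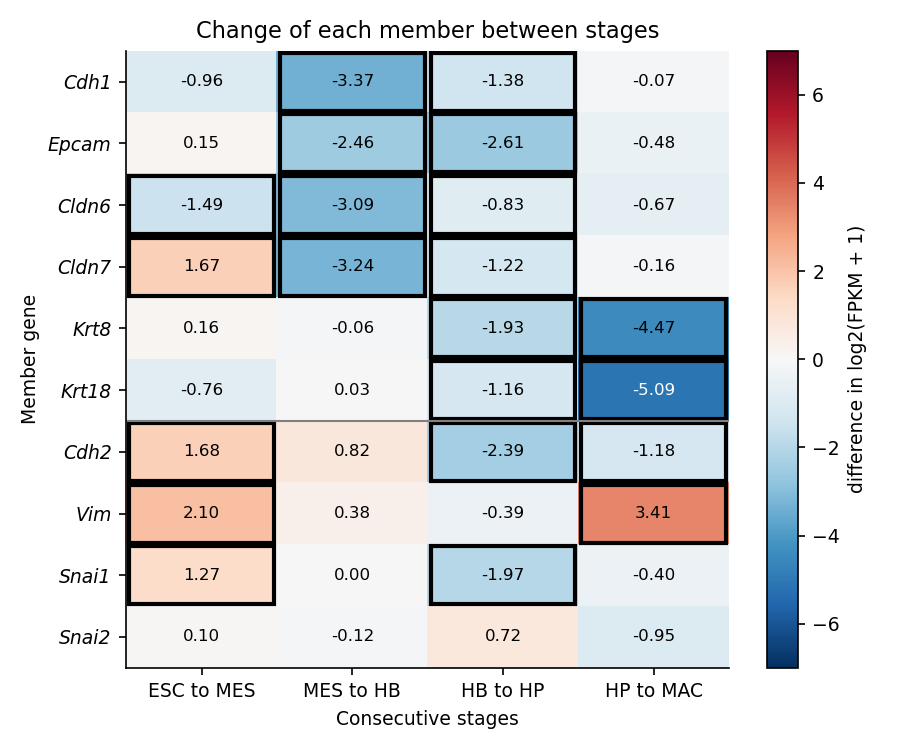
Change of each member (rows) between consecutive stages (columns) as the difference in log2(FPKM + 1), in red for higher and blue for lower in the later stage. Black frames mark differences of 2-fold or more that reached 1 FPKM; the adhesion genes are framed from MES to HB and the keratin genes only from HB to HP and from HP to MAC.

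Ratios of paired genes were followed through the stages. The log2 ratio of *Cdh2* to *Cdh1*, each with 1 FPKM added, was -5.03 in ESCs, -2.40 in MES, 1.79 in HB, 0.77 in HP, then -0.34 in MAC. The cadherin ratio changed sign between MES and HB, and in HP and MAC it compared levels of 4.02 FPKM or less. The log2 ratio of *Vim* to *Krt8* was -0.93 in ESCs, 1.01 in MES, 1.46 in HB, 3.0 in HP, then 10.89 in MAC. The filament ratio changed sign 1 stage before the cadherin ratio, between ESC and MES, through the increase in *Vim* and with no loss of *Krt8*. Where a ratio changes sign depends on its starting level in ESCs, -5.03 for the cadherins and -0.93 for the filaments. The signs thus do not order the cadherin and filament exchanges, and the labels name different tools for ESCs and MES. MES carried both sets of RNA in bulk, with *Cdh1* at 77.8 FPKM and *Vim* at 199.8 FPKM. These values do not show whether single MES cells held both.

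**Figure D3:**
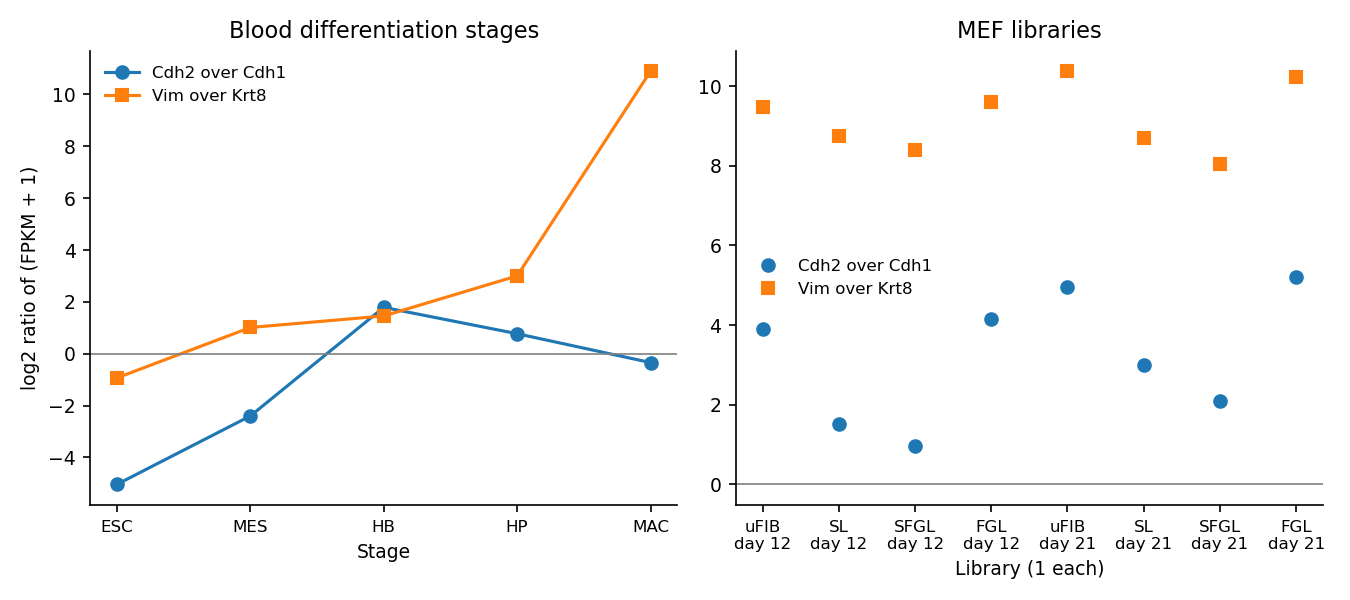
Log2 ratios of *Cdh2* to *Cdh1* (circles) and of *Vim* to *Krt8* (squares), each with 1 FPKM added, in the 5 stages (left) and in the 8 MEF libraries (right). Points are single values without error; in the stages the *Vim* ratio crosses 0 between ESC and MES and the *Cdh2* ratio between MES and HB, and both ratios are above 0 in every MEF library.

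Other junction genes were counted in the same way. Of the tight junction genes, 26 were measured, of which 16 reached 1 FPKM in MES or HB. From MES to HB 7 of these were called lower and 1 higher, where 6.30% and 4.05% of all genes were. In MES 16 of the 26 genes reached 1 FPKM and in HB 11. Most of those called lower passed the minimum through MES alone, so that only a lower call was open to them. *Cldn4* had 84.1, 30.5, 4.51, 1.43 and 0.0342 FPKM from ESC to MAC. *Crb3*, an apical polarity gene, had 11.8, 5.70, 0.513, 0.185 and 0.0385 FPKM. Not all parts of the junction went this way. *Tjp1*, which encodes the scaffold protein ZO-1, had 29.1, 18.5, 18, 7.34 and 1.25 FPKM, and *Pard6b*, a polarity gene, was highest in HB at 22.4 FPKM. The transmembrane and apical genes were thus lower in HB than in MES, while the scaffold gene was not.

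Among regulators and proteases linked to the epithelial state, 18 were measured. From ESC to MES, 7 of 16 at 1 FPKM or more were called lower and 1 higher, against 12.0% and 11.3% of all genes. From MES to HB, 13 of 14 were called lower and 0 higher, against 6.30% and 4.05%. Of these 18 genes, 14 reached 1 FPKM in MES and 8 in HB, so that some passed the minimum through MES alone. *Esrp1*, which encodes an epithelial splicing factor, had 15.4, 10.5, 1.38, 0.0603 and 0.00501 FPKM from ESC to MAC. *Spint2*, which encodes a membrane-bound protease inhibitor, had 55.3, 38.8, 12.4, 1.89 and 3.0 FPKM. *St14*, which encodes the protease matriptase, had 23.6, 17.9, 3.08, 0.852 and 26.0 FPKM, so that it was high again in MAC. *Prom1*, which encodes prominin, peaked in MES at 18.6 FPKM as *Cldn7* did.

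Adherens junction and desmosome genes changed in both directions. Of 19 measured, 17 reached 1 FPKM in MES or HB, of which 3 were called higher and 3 lower, where 4.05% and 6.30% of all genes were. In HB or HP, 16 reached 1 FPKM, of which 10 were called lower and 3 higher, where 12.8% and 12.3% of all genes were. *Cdh11*, a cadherin of mesenchymal cells, had 1.39, 15.6, 72.8, 4.46 and 0.179 FPKM from ESC to MAC and so peaked in HB together with *Cdh2*, at a higher level. *Dsp*, which encodes the desmosome linker to keratin filaments, had 11.1, 30.4, 31.1, 4.78 and 0.0994 FPKM and stayed high in HB as the keratin genes did. *Perp*, a desmosome gene, had 61.6, 19.4, 7.03, 18.2 and 4.91 FPKM. *Ctnnb1*, which encodes β-catenin, had 18.8 FPKM in ESCs and 179 FPKM in MES, across the step where the labels name different tools.

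Of 17 further filament genes, 6 of 12 at 1 FPKM or more were called lower from ESC to MES, against 12.0% of all genes. From MES to HB it was 1 of 7, against 6.30%, and 0 were called higher at either step. In ESCs 12 of these genes reached 1 FPKM and in MES 7. Most of those called lower in MES passed the minimum through ESCs alone. The gene lower in HB was *Krt19*, which had 84.5, 80.5, 25.7, 16.1 and 0.673 FPKM from ESC to MAC and thus fell a stage before *Krt8* and *Krt18*. *Lmna*, which encodes lamins A and C, was highest in MAC at 208 FPKM, as *Vim* was, and *Lmnb1*, which encodes lamin B1, was lowest there at 1.71 FPKM. *Plec*, which encodes a linker of intermediate filaments, was also highest in MAC at 77.5 FPKM.

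Of 16 other transcription factor genes linked to the switch, 4 of 11 at 1 FPKM or more were called higher and 1 lower from ESC to MES, where 11.3% and 12.0% of all genes were. From MES to HB, 4 of 13 were called higher and 2 lower, where 4.05% and 6.30% were, and from HB to HP 7 of 12 were called lower and 0 higher, where 12.8% and 12.3% were. *Id3*, which encodes an inhibitor of basic helix-loop-helix factors, had 30.4, 50.5, 111, 8.70 and 0.836 FPKM from ESC to MAC. *Id1* was highest in ESCs at 110.2 FPKM, and *Id2* was highest in MAC at 313 FPKM. *Zeb2*, which encodes a repressor of *Cdh1*, had 0.362, 1.5, 6.76, 12.7 and 46.8 FPKM, so that it was highest where *Snai1* was listed at 0.

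Matrix and mesenchymal adhesion genes did not form 1 block. Of 24 measured, 18 reached 1 FPKM in MES or HB, of which 3 were called higher and 2 lower, where 4.05% and 6.30% of all genes were. In HB or HP, 21 reached 1 FPKM, of which 8 were called higher and 5 lower, where 12.3% and 12.8% were. *Tagln*, an actin-binding gene of smooth muscle, had 124, 62.9, 25.8, 37.3 and 0.332 FPKM from ESC to MAC. *Itgb3*, an integrin gene of the platelet lineage, was highest in HP at 96.7 FPKM. *S100a4* and *Axl* were highest in MAC at 124 and 104 FPKM.

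**Figure D4:**
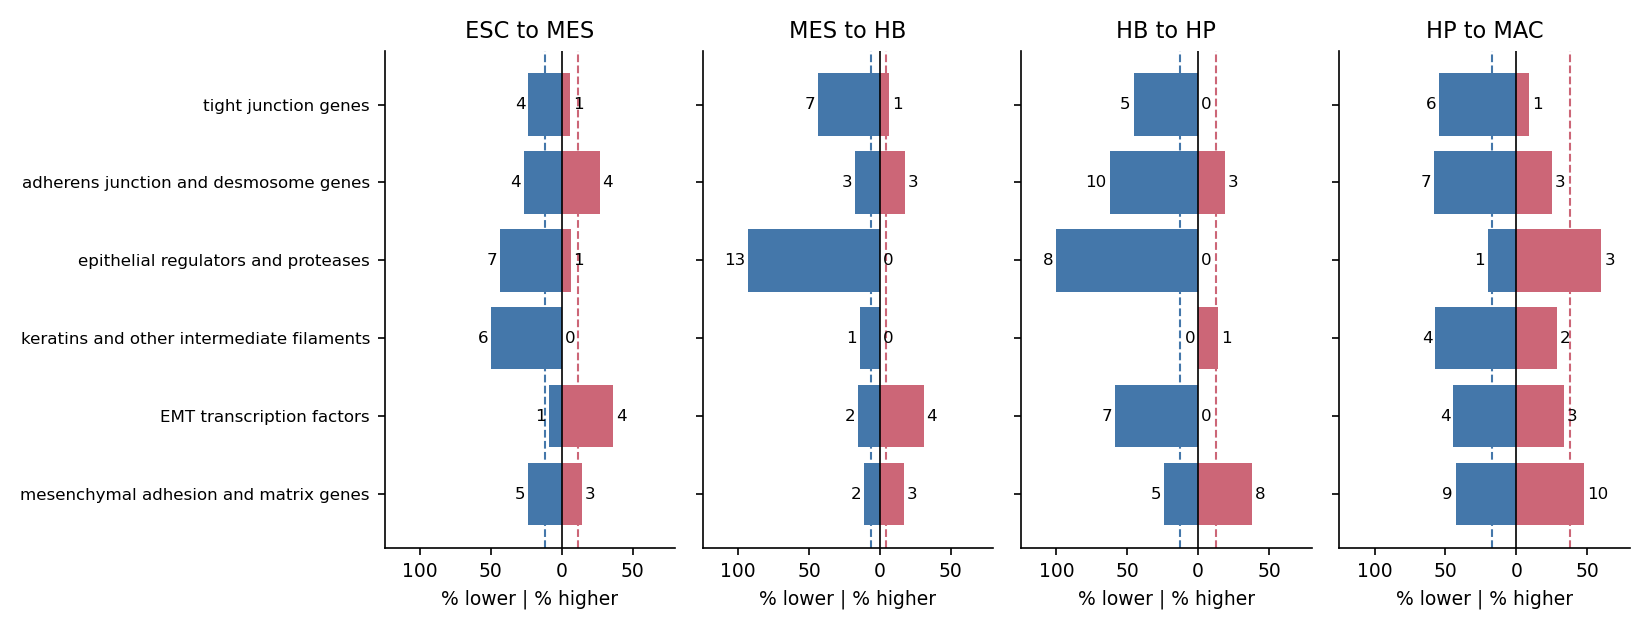
Share of the genes of each list at 1 FPKM or more (rows) that were at least 2-fold higher (red, to the right) or lower (blue, to the left) at each change of stage (panels), in percent, with the number of genes beside each bar. Dashed lines give the shares of all genes tested; from MES to HB the epithelial regulators and proteases reach 13 lower and 0 higher.

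The genes whose course over the 5 stages lay nearest to that of *Cdh1*, by the root mean square difference of centred log2(FPKM + 1) values, were *Cldn6* (0.28), *Sox2* (0.42), *Nanog* (0.44), *Cldn4* (0.46) and *Nefl* (0.61). *Sox2* and *Nanog* encode factors of pluripotent cells. Near to *Snai1* lay *Spata13* (0.17), *Lrfn4* (0.21), *H2afy2* (0.29) and *Zfp105* (0.30). For *Vim* they were *Bri3* (0.31), *Cd63* (0.31), *Gas6* (0.33), *Fos* (0.34) and *Efhd2* (0.35), all highest in MAC. These distances rest on 5 values per gene.

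Markers of other cells were read beside the members. The 9 fibroblast genes summed to 6.97 FPKM in ESCs, 9.85 FPKM in MES, 13.7 FPKM in HB, 64.1 FPKM in HP, and to 3.11 FPKM in MAC. From HB to HP, 6 of them reached 1 FPKM, of which 5 were called higher and 1 lower, where 12.3% and 12.8% of all genes were. In HP, *Postn* had 23.3 FPKM and *Col1a1* 13.1 FPKM. *Fbln1* was lower, at 0.824 FPKM against 8.89 FPKM in HB, and *Lum*, *Dcn* and *Col6a3* had 0.242, 0.366 and 0.188 FPKM in HP. *Acta2*, a smooth muscle actin gene, had 87.3 FPKM in HP against 0.705 FPKM in HB. Whether fibroblasts or smooth muscle cells contributed to the HP values of *Vim*, *Krt8* and *Krt18* was not tested. The 10 endoderm genes summed to 3.61 FPKM in HP and to 34.8 FPKM in HB. In HB *Gata4* made up 24.4 FPKM and *Gata6* 9.03 FPKM, against 4.34 and 2.53 FPKM in MES. *Sox17* and *Foxa2*, of the same list, stayed under 1 FPKM in every stage. The 8 genes of surface epithelium summed to 88.8 FPKM in ESCs, with *Sfn* at 86.9 FPKM, to 12.7 FPKM in MES and to 5.12 FPKM or less in the later stages. The 8 stem cell markers summed to 948 FPKM in ESCs, 536 FPKM in MES, 180.2 FPKM in HB, 4.26 FPKM in HP, with 6.14 FPKM in MAC, and were lower in HB than in MES as the epithelial adhesion genes were, although *Cldn7* and *Epcam* were not lower in MES than in ESCs. The 8 markers of primitive streak and mesoderm summed to 13.6 FPKM in ESCs, 314 FPKM in MES, 244 FPKM in HB and less than 1 FPKM in HP and MAC, and they moved with *Snai1*.

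In the MEFs the same genes had a mesenchymal pattern. In uFIB at day 12 and day 21, *Vim* had 1194 and 1323 FPKM, *Snai1* 37.4 and 34.8 FPKM, *Snai2* 25.5 and 34.7 FPKM and *Cdh2* 28.9 and 39.3 FPKM. *Cdh1* had 0.998 and 0.299 FPKM and *Krt18* 2.84 and 0.320 FPKM. *Krt8*, *Epcam* and *Cldn7* stayed under 1 FPKM in all 8 libraries, the highest value being 0.683 FPKM of *Krt8* in uFIB at day 12, and *Cldn6* was listed at 0 in all of them. *Snai2*, which was under 1 FPKM in the stages, was thus among the expressed members here, and levels are not compared across the tables because they were normalized separately.

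The factors given to the MEFs were read in their libraries before the members. On day 12 *Tal1* had 62.0 FPKM in SL and 58.0 FPKM in SFGL against 0.0414 FPKM in uFIB, and on day 21 it had 347 and 119 FPKM against 0.415 FPKM. The library labelled FGL had 7.04 FPKM of *Tal1* at day 12, although Scl is not in its label. *Fli1*, which is in that label, had 3.35 FPKM in it at day 21 against 3.02 FPKM in uFIB. *Gata2* and *Lmo2*, also in that label, had 21.9 and 36.2 FPKM in it at day 12, against 1.80 and 0.499 FPKM in uFIB. At day 21 they had 35.1 and 66.5 FPKM, against 2.13 and 2.28 FPKM. Some factors thus matched the FGL label and others did not, and both FGL labels are given as labels only. In SL, whose label has neither *Fli1* nor *Gata2*, *Fli1* had 46.7 and 34.4 FPKM and *Gata2* 68.8 and 62.6 FPKM on the 2 days. These values do not separate RNA of the factors given from RNA of the cells' own genes.

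In SL and SFGL the mesenchymal members were lower than in uFIB on both days. On day 12 *Snai2* had 6.59 FPKM in SL and 4.90 FPKM in SFGL, and on day 21 it had 7.17 and 3.90 FPKM. *Snai1* was at 14.3 FPKM in SL and 9.06 FPKM in SFGL on day 12 and at 14.9 and 11.9 FPKM on day 21. All 4 values of either gene lay below both uFIB values.

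*Vim* was at 498 FPKM in SL and 414 FPKM in SFGL on day 12 and at 437 and 308 FPKM on day 21. On day 12 *Cdh2* had 8.82 FPKM in SL and 6.2 FPKM in SFGL, and on day 21 it had 22.9 and 14.9 FPKM. *Vim* kept 23.3% to 41.7% of the uFIB level of the same day, *Snai1* 24.2% to 42.7%, *Snai2* 11.2% to 25.8% and *Cdh2* 21.4% to 58.2%.

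2 epithelial members were higher in SL and SFGL, though at low levels. *Cdh1* was at 2.43 FPKM in SL and 2.69 FPKM in SFGL on day 12 and at 2.01 and 2.73 FPKM on day 21. On day 12 *Krt18* had 3.95 FPKM in SL and 7.94 FPKM in SFGL, and on day 21 it had 4.82 and 7.14 FPKM. Every one of these values lay above the 2 uFIB values of its gene. *Krt18* came without its partner, since *Krt8* had 0.0562 to 0.241 FPKM in these 4 libraries.

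In SL at day 12, 4 of the 6 members at 1 FPKM or more were called lower, where 18.2% of all genes were, and 1 was called higher, where 16.3% were. At day 21 the counts were 3 lower, where 15.7% of all genes were, and 2 higher, where 14.6% were. *Cdh2* was 1.72-fold lower in SL at day 21 and was not called. *Cdh1* on both days, and *Krt18* at day 21, reached 1 FPKM through the treated libraries alone, so that only a higher call was open to them. In SFGL, 4 of 6 were called lower and 2 higher on each day, where 21.5% and 16.9% of all genes were at day 12 and 20.2% and 16.5% at day 21. In the library labelled FGL, 1 of 5 members was called lower at day 12, where 1.19% of all genes were, and 0 higher, where 3.91% were. At day 21 it was 0 of 4 in both directions, where 0.984% of all genes were lower and 1.15% higher.

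The libraries labelled FGL stayed near uFIB for most members. *Snai1* was at 35.8 FPKM on day 12 and at 47.4 FPKM on day 21, *Vim* 849 and 1201 FPKM, *Cdh2* 22.6 and 39.0 FPKM and *Snai2* 18.3 and 37.1 FPKM. *Cdh1* had 0.337 and 0.0883 FPKM, below uFIB of the same day, and *Krt18* had 1.02 and 0.389 FPKM. At day 12 all members at 1 FPKM or more in uFIB were thus lower in this library, of which *Krt18*, at 2.77-fold, was called.

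**Figure D5:**
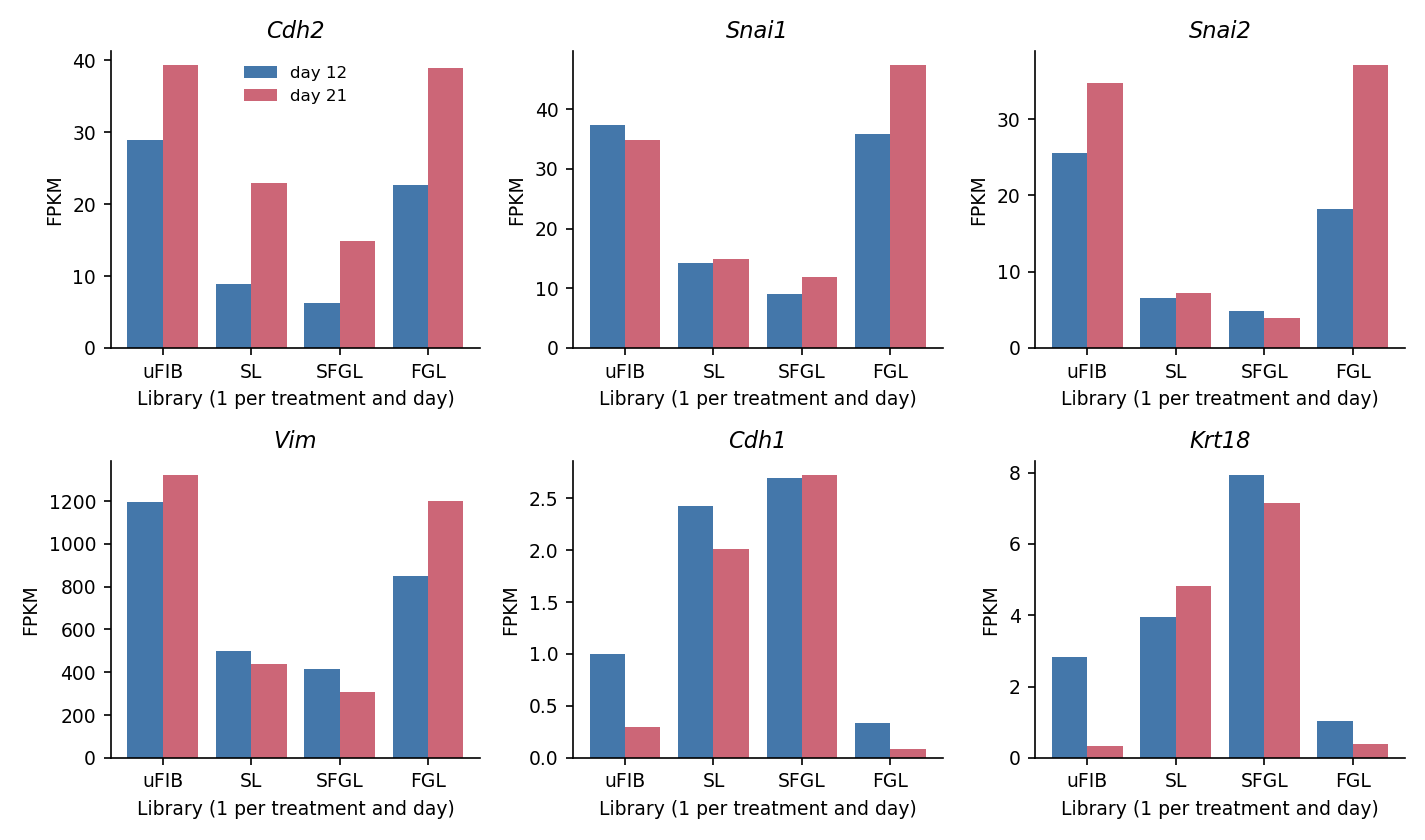
FPKM (y axis, from 0) of the 6 members that reached 1 FPKM in the MEFs, for uFIB and the libraries labelled SL, SFGL and FGL (x axis) at day 12 (blue) and day 21 (red). Each bar is 1 library without error; *Cdh2*, *Snai1*, *Snai2* and *Vim* are lower and *Cdh1* and *Krt18* higher in SL and SFGL than in uFIB of the same day.

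Blood and fibroblast markers moved with the members. The 9 fibroblast genes summed to 8067 FPKM in uFIB at day 12 and 6216 FPKM at day 21. SL held 33.8% and 27.5% of this on the 2 days, SFGL 27.0% and 21.6% and the library labelled FGL 84.8% and 100.5%. The 7 pan-leukocyte genes measured summed to 1073 FPKM in SL and 1283 FPKM in SFGL on day 12 and to 441 and 676 FPKM on day 21, against 1.59 and 6.39 FPKM in uFIB. In the library labelled FGL they summed to 99.2 FPKM at day 12 and 1.78 FPKM at day 21. The part of fibroblasts and blood cells in the values of the members was not tested. *Foxa2*, an endoderm factor gene, was listed at 0 in all 8 libraries. *Gata6*, of the same list, had 7.96 and 7.98 FPKM in uFIB and 1.91 and 3.01 FPKM in SL on the 2 days. The 10 endoderm genes summed to 33.9 FPKM in SL and 24.3 FPKM in SFGL at day 21, of which *Apoa1*, a gene of lipid transport, made up 30.4 and 21.5 FPKM. The 8 genes of surface epithelium summed to 4.46 to 5.72 FPKM in SL and SFGL against 2.16 to 2.69 FPKM in uFIB. In SL, *Sfn* made up 2.90 FPKM at day 12 and *Ivl* 3.98 FPKM at day 21. Others were lower in SL, with *Trp63* at 0.164 against 0.708 FPKM at day 12 and *Krt10* at 0.429 against 1.05 FPKM at day 21. *Krt5*, *Krt1* and *Dsg3* were listed at 0 in all 8 libraries.

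Of 19 epithelial regulators and proteases, 5 reached 1 FPKM in SL on each day and 1, *Spint2*, in uFIB, so that most of them passed the minimum through SL alone. Regulators of the epithelial state were divided in SL, where *Esrp1*, *Ovol2* and *Grhl2* were at or near 0 and *Grhl1*, *Esrp2* and *Ovol1* were not. *Esrp1* and *Ovol2* were listed at 0 on both days, *Grhl2*, which encodes an epithelial transcription factor, had 0.0441 and 0.0568 FPKM. *Grhl1*, of the same family, had 0.706 against 0.920 FPKM in uFIB at day 12 and 0.633 against 0.935 FPKM at day 21. *Esrp2* had 0.566 against 0.774 FPKM at day 12 and 1.17 against 0.418 FPKM at day 21, where it was called higher. *Ovol1* had 0.738 against 0.263 FPKM at day 12 and was lower in SL than in uFIB at day 21. *Spint2* had 69.5 FPKM in SL at day 12 against 2.64 FPKM in uFIB, and 58.2 against 1.16 FPKM at day 21. *Prom1* had 12.9 FPKM in SL at day 12, where it was listed at 0 in uFIB, and 6.23 against 0.141 FPKM at day 21. *Epcam* had 0.0941 and 0.194 FPKM in SL on the 2 days.

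Of the 26 tight junction genes, 14 reached 1 FPKM in SL or uFIB at day 12, of which 6 were called higher and 2 lower, where 16.3% and 18.2% of all genes were. At day 21 it was 17, of which 8 were called higher and 2 lower, where 14.6% and 15.7% were. On that day 15 of the 26 genes reached 1 FPKM in SL and 10 in uFIB. Of those called higher at day 21, all but *F11r* passed the minimum through SL alone. *F11r*, which encodes the junction protein JAM-A that blood cells also carry, had 28.4 FPKM in SL against 5.44 FPKM in uFIB at day 12, and 43.0 against 2.63 FPKM at day 21. *Cldn3* had 1.26 against 0.103 FPKM at day 12 and 11.5 against 0.181 FPKM at day 21. *Cldn15* had 15.8 against 3.18 FPKM at day 12 and 6.72 against 4.11 FPKM at day 21. The claudins that were higher in SL were thus others than the members *Cldn6* and *Cldn7*.

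The other lists were divided in SL. Of the matrix and mesenchymal adhesion genes, all 25 reached 1 FPKM, of which 15 were called lower and 3 higher at day 12, where 18.2% and 16.3% of all genes were, and 10 lower and 2 higher at day 21, where 15.7% and 14.6% were. *Fap*, a fibroblast protease gene, had 1.44 against 5.41 FPKM at day 12 and 0.830 against 12.1 FPKM at day 21, while *Itgb3* (28.0 against 1.98 FPKM at day 12) and *Tgfb1* (189.9 against 29.2 FPKM) were higher. Of the 14 transcription factor genes that reached 1 FPKM on each day, 8 were called lower and 3 higher at day 12, where 18.2% and 16.3% of all genes were. At day 21 it was 7 lower and 3 higher, where 15.7% and 14.6% of all genes were. *Prrx1*, a gene of limb and body wall mesenchyme, had 24.1 against 115 FPKM at day 12, and *Twist2* 2.46 against 15.0 FPKM. *Snai3*, the Snail gene outside the members, had 2.90 and 3.84 FPKM in SL on the 2 days and was listed at 0 in uFIB, opposite to *Snai1* and *Snai2*.

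Of the adherens junction and desmosome genes, 14 reached 1 FPKM in SL or uFIB on each day, of which 3 were called higher and 6 lower at day 12, where 16.3% and 18.2% of all genes were, and 3 each way at day 21, where 14.6% and 15.7% were. *Cdh11* was lower with *Cdh2*, at 31.7 against 169 FPKM at day 12 and 20.3 against 149 FPKM at day 21. *Cdh3*, which encodes P-cadherin, had 5.70 against 20.8 FPKM at day 12 and 4.25 against 4.09 FPKM at day 21, so that the cadherin was lower on day 12 alone. *Perp* was higher on both days, with 16.5 against 1.39 FPKM at day 12 and 14.3 against 1.89 FPKM at day 21. Of the further filament genes, 8 reached 1 FPKM at day 12, of which 3 were called higher and 3 lower, where 16.3% and 18.2% of all genes were. At day 21 it was 10, of which 3 were called higher and 2 lower, where 14.6% and 15.7% of all genes were. *Nes*, which encodes nestin, had 4.99 against 30.1 FPKM at day 12, *Krt7* 12.1 against 4.98 FPKM and *Lmnb1* 39.9 against 8.67 FPKM.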

How the data were processed

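RNA-seq of ribosome-depleted total RNA was analysed in 18 samples, assigned to stages or treatments from their labels. All values used are FPKM as deposited. Per the paper's methods, the authors aligned SOLiD reads to mm10 (GRCm38) with SHRiMP, kept unique reads without Picard duplicates and used Cufflinks, for the stages per TSS with the replicates combined and for the MEFs per gene. The labels name Bowtie and HOMER for ESCs and TopHat with Cufflinks for MEFs; versions are not given in the sources used here. An effect of duplicate removal on highly expressed genes was not measured. In the stage table, 1 further column of values, for HE, was not used.

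TSS values were summed per gene. Calls needed a 2-fold difference on FPKM + 0.001 and 1 FPKM in the higher group, and all genes reaching 1 FPKM were the background. A gene that reached 1 FPKM in 1 group alone could be called only towards that group. No test was run, because no replicate values are given. Named genes of each of the 6 lists were the up to 4 with the largest range over the stages and the up to 3 with the largest mean change in SL, among those at 10 FPKM or more (5 for transcription factors and for regulators and proteases); nearest profiles were taken for *Cdh1*, *Snai1* and *Vim* among genes at 10 FPKM or more. Some genes that this rule names are not reported here. Members and lists were chosen with earlier results of these data known. Genes outside this rule (*Pou5f1*, *T*, *Kdr*, *Hbb-bh1*, *Emr1*, the marker genes and the factors given to MEFs) served as checks. *Acta2*, *Esrp2*, *Grhl1*, *Grhl2*, *Ovol1* and *Ovol2*, which are in the lists, were also named outside this rule. Calls and profiles were tested on simulated data. Positions of genes come from the deposited table, counted from 1, and were checked against GENCODE M21. Alternatives were other pseudocounts, minimums and folds, scaling to the same upper quartile, the highest TSS alone and a reference averaged over both uFIB libraries. Python 3.11.15, NumPy 2.4.6, pandas 2.3.3 and matplotlib 3.10.9 were used.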

Additional observations from a re-analysis of the deposited data

Results flagged for a closer look

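The direction of 2 members in the library labelled FGL differed between the days, and this difference was not tested. *Snai1* changed against uFIB by -0.06 at day 12 and by 0.44 at day 21 on the log2(FPKM + 1) scale, a difference of 0.50. *Snai2* changed by -0.46 at day 12 and by 0.10 at day 21, a difference of 0.56. Each value rests on 1 library per day, and none of the 4 changes was called.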

How the results depend on the processing

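With a fold of 4, the counts of members called were 1 higher and 0 lower from ESC to MES, 4 lower from HB to HP, 0 higher and 0 lower in SL at day 12, 1 lower in SL at day 21, 0 higher at day 12 and 2 lower at day 21 in SFGL, and 0 lower in the library labelled FGL at day 12. With a minimum of 5 FPKM they were 5 lower from HB to HP, 0 higher in SL on each day, 1 higher in SFGL on each day and 0 lower in the library labelled FGL at day 12. With no minimum they were 1 higher from HB to HP, 8 lower from HP to MAC, 2 higher at day 12 and 5 lower at day 21 in SL, and 3 and 1 lower on the 2 days in the library labelled FGL. With a pseudocount of 1 FPKM they were 0 higher in SL and 1 higher in SFGL at day 12 and 0 lower in the library labelled FGL at day 12. Scaling to the same upper quartile gave 1 higher from HB to HP. With the mean of both uFIB libraries as reference, 2 were higher in SL at day 12, and 0 and 1 were lower in the library labelled FGL on the 2 days. The other 112 of 140 counts stayed within 1.5 times the value reported, among them the 4 members lower from MES to HB under all 7 alternatives. Of 300 changes of single members, 0 called ones changed sign, but 76 moved by more than 0.5 of their size, 38 with a pseudocount of 0.1 FPKM, 26 with the mean uFIB reference and 12 with the same upper quartile. With the pseudocount of 0.1, *Snai1* was at -3.34 in place of -1.97 from HB to HP and *Krt8* at -6.75 in place of -4.47 from HP to MAC. Fewer genes pass a stricter limit by construction; the other shifts were not traced to a cause. No paired analysis was possible because the columns carry no replicate values. The unknown read depth limits above all the values under 1 FPKM.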
